A study of Isostichopus badionotus with 6 samples.

Results

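Mitochondrial 16S ribosomal RNA was followed in the body wall of captive Isostichopus badionotus, a tropical Atlantic sea cucumber, through the 5 assembled loci that were matched to this RNA: Locus_5720, Locus_761, Locus_86390, Locus_92057 and Locus_92067. All counted transcripts whose identifier belongs to one of these loci were taken, which gave 24 of the 129776 counted transcripts and 5 of the 80132 loci. The animals were 2 adults, numbered 5 and 6 and labelled as adapted to captivity, and 4 juveniles, numbered 1 to 4 and labelled as kept in captivity. All 6 were captive animals and each gave 1 library, so stage and adaptation cannot be told apart. The description of the series calls all 6 animals farmed juveniles, whereas the sample labels, which were followed here, make 2 of them adults, and no age is stated for the adults. No wild animal was analysed here, and p-values measure the spread between these animals only.

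The 16S rRNA is the RNA of the large subunit of the mitochondrial ribosome, which makes the few proteins encoded in mitochondrial DNA, among them COX1, the catalytic subunit of cytochrome c oxidase. It is itself encoded in mitochondrial DNA and is cut out of long precursor RNAs. Animal mitochondrial RNAs, ribosomal ones included, can carry short A tails, and libraries selected for poly(A) such as these can retain them. In sea cucumbers the 16S gene is also much used to tell species apart. In RNA of a whole tissue, fewer cells rich in mitochondria and less mitochondrial RNA per cell cannot be told apart.

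The files name the members by number only. A 16S match was given for 6 transcripts, namely T19 and T24 of Locus_5720, T5 of Locus_761 and the single transcripts of Locus_86390, Locus_92057 and Locus_92067. The other members were taken by locus. Transcripts of one locus are alternative paths through one assembly graph, and all 24 are short, from 114 to 238 nt. Of the transcripts assembled, 9 of 26 of Locus_5720 and 12 of 51 of Locus_761 were in the count table, beside 1 each of the other 3 loci. Since only uniquely matching reads were counted, reads shared by similar transcripts are missing, and the level of any single transcript is uncertain.

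Library totals lay between 21714696 and 31742950 counts, a 1.46-fold range. Levels below are CPM (counts scaled to a common library size) on totals scaled by the trimmed mean of M-values (TMM), whose factors were 0.973 and 0.586 in adults 5 and 6 and 1.04 to 1.32 in the juveniles. The low factor of adult 6 raises every scaled level of that animal, so shares of the unscaled totals are given beside the levels. Of lists named from the study's own annotation, the 8 collagen transcripts, which mark the connective tissue of the body wall, were counted in every animal, with sums of 369 and 480.0 CPM in the adults and 59.4 to 253 CPM in the juveniles. The 6 muscle transcripts summed to 2817 and 2541 CPM in the adults, against 1725, 210.4, 508 and 2478 CPM in juveniles 1 to 4, a sum made up mostly of myosin heavy chain. Single members did not all follow it, since cardiac alpha actin had 14.4, 30.4, 23.8 and 16.6 CPM in the same juveniles and was highest in juvenile 2, where the sum was lowest. The 3 cilia transcripts summed to 16.2 and 11.1 CPM in the adults and to 13.4 to 47.7 CPM in the juveniles. The part of tissue makeup in the 16S values was not tested.

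The 5 loci together took a large share of each library. They held 14.3% and 15.6% of all counts in adults 5 and 6, against 9.77%, 13.99%, 10.5% and 9.80% in juveniles 1 to 4. Both adults lay above all juveniles, with juvenile 2 close below adult 5 and the other juveniles well apart from it. The means were 14.9% in the adults and 11.01% ± 2.01 in the juveniles (SD, n = 4), a difference of 3.93 percentage points with a two-sided exact permutation p of 0.133. That is the smallest p that 2 animals against 4 allow, over 15 assignments, so this design could not reach 0.05, and over the 6 shares compared the adjusted exact p was 0.267. From the 6 matched transcripts alone the difference was 2.69 points and the groups overlapped (exact permutation p = 0.267). The 95% Wilson intervals of these shares were no wider than 0.0146 points either way, and they cover only the error of counting.

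Most of this RNA came from a pair of loci. Locus_5720 held 5.99% and 5.97% of all counts in adults 5 and 6, against 3.99%, 5.61%, 4.56% and 4.16% in juveniles 1 to 4. Locus_761 held 6.15% and 7.17% in the adults, against 4.33%, 6.17%, 4.51% and 4.35% in the juveniles. Both adults lay above all juveniles for Locus_5720, and for Locus_761 juvenile 2 reached the level of adult 5. The differences were 1.40 points for Locus_5720 (exact permutation p = 0.133, adjusted 0.267) and 1.82 points for Locus_761 (exact permutation p = 0.267, adjusted 0.32).

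The loci with 1 transcript were lower. Locus_86390 took 1.27% and 1.5% of all counts in adults 5 and 6, against 0.821%, 1.23%, 0.842% and 0.760% in juveniles 1 to 4, and both adults were above all juveniles (difference 0.473 points, exact permutation p = 0.133, adjusted 0.267). For Locus_92057 the shares were 0.857% and 0.969% in the adults and 0.629%, 0.970%, 0.560% and 0.528% in the juveniles, where juvenile 2 matched adult 6 and the groups overlapped (exact permutation p = 0.4). Locus_92067 was rare, with 0.0114% and 0.00449% in the adults and 0.000602%, 0.00111%, 0.00936% and 0.0028% in the juveniles. Its groups overlapped as well, and juvenile 3 stood nearer to adult 5 than to juveniles 1 and 2 (exact permutation p = 0.267).

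**Figure D1:**
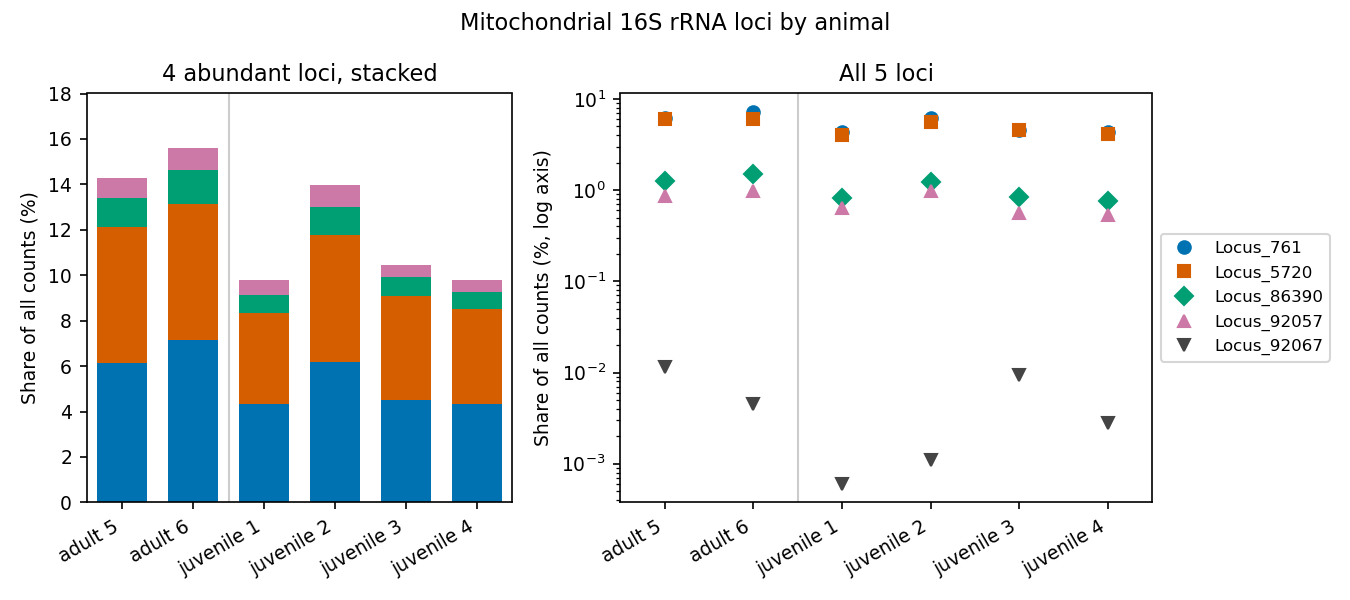
Share of all counts in each library, in percent on the vertical axes, in adults 5 and 6 and juveniles 1 to 4, with the 4 abundant 16S rRNA loci stacked on the left and all 5 loci as points on a log axis on the right. The 5 loci together reached 14.3% and 15.6% in the adults and 9.77% to 13.99% in the juveniles, with juvenile 2 the highest juvenile.

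Set against each other, the 4 larger loci kept nearly the same proportions in all animals. Of the counts of the 5 loci, Locus_761 held 43.1% and 45.9% in the adults and 43.0% to 44.4% in the juveniles. Locus_5720 held 41.9% and 38.2% in the adults and 40.1% to 43.5% in the juveniles. The ratio of Locus_5720 to Locus_761 was thus close to 1 in every animal, at 0.973 and 0.833 in adults 5 and 6 and 0.921, 0.910, 1.01 and 0.955 in juveniles 1 to 4. The groups overlapped in this ratio, with a log2 difference of adults minus juveniles of -0.07 (exact permutation p = 0.533), and adult 6 had the lowest value.

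Among all 10 pairs of loci, the 6 pairs without Locus_92067 varied by 1.2-fold to 1.41-fold between the lowest and the highest animal. Only the ratio of Locus_761 to Locus_86390 did not overlap between the groups. It was 4.83 and 4.77 in the adults, against 5.27, 5.00, 5.36 and 5.73 in the juveniles (log2 difference -0.15, exact permutation p = 0.133, adjusted over 10 pairs 0.741). In this design any given pair separates the groups, in either direction, with a chance of 0.133. Finding 1 such pair among 10 therefore cannot be told from chance, and the lower ratio in these adults is a description only. From matched transcripts only, the log2 difference was smaller, at -0.058 (exact permutation p = 0.4). In the same summed counts, Locus_86390 made up 8.91% and 9.63% of the 5 loci in the adults, against 8.40%, 8.82%, 8.03% and 7.75% in juveniles 1 to 4. The ratio of Locus_5720 to Locus_86390 was 4.71 and 3.97 in the adults, against 4.86, 4.55, 5.42 and 5.47 in the juveniles, and these values overlapped.

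Locus_92057, which made up 6.00% and 6.21% of the 5 loci in the adults and 5.34% to 6.93% in the juveniles, split the juveniles among themselves. The ratio of Locus_86390 to Locus_92057 was 1.48 and 1.55 in the adults and 1.31, 1.27, 1.5 and 1.44 in juveniles 1 to 4. Juveniles 1 and 2 were thus lowest, and juvenile 3 lay between the adults (log2 difference 0.14, exact permutation p = 0.267). The ratio of Locus_761 to Locus_92057 was 7.18 and 7.40 in the adults, against 6.88, 6.36, 8.05 and 8.25 in the juveniles. Here too juveniles 1 and 2 were the lowest, while juveniles 3 and 4 were above both adults.

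The 4 pairs with Locus_92067 varied by 13.6-fold to 17.5-fold. For each count of Locus_92067, Locus_86390 had 112 and 335 counts in adults 5 and 6, against 1365, 1117, 89.9 and 272 in juveniles 1 to 4. Juveniles 1 and 2 stood apart at the high end of this ratio, and juvenile 3 and adult 5 formed the low end. The log2 difference of -1.18 was within the spread of the juveniles (exact permutation p = 0.667). Locus_92067 had 2706 and 1175 counts in the adults and 191, 240, 2804 and 793 in juveniles 1 to 4, so each value rests on well over 100 counts.

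**Figure D2:**
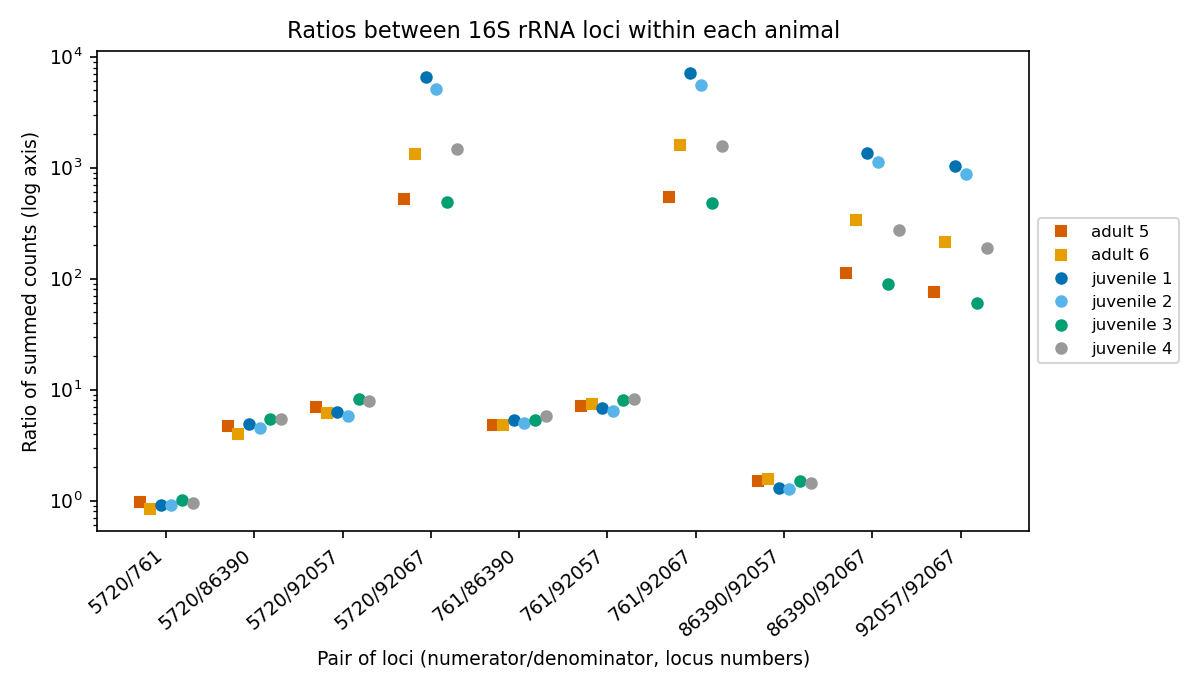
Ratio of summed counts for pairs of 16S rRNA loci in each animal, on log axes, with adults left of juveniles. Pairs among the 4 larger loci stayed within 1.41-fold over the 6 animals, whereas the pairs with Locus_92067 spanned at least 13.6-fold.

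Within each of the 2 loci with several transcripts, a pair of transcripts held nearly all counts. In Locus_5720, T3 and T24 together held 96.0% and 97.7% of the locus in the adults and 95.4% to 97.5% in the juveniles. In Locus_761, T5 and T42 held 94.8% and 93.5% in the adults and 92.9% to 95.6% in the juveniles. These 4 transcripts were also the 4 highest of all counted transcripts by mean level in the juveniles, in the order T42 and T5 of Locus_761, then T24 and T3 of Locus_5720.

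T24 of Locus_5720, matched to 16S rRNA and 160 nt long, had 641206 and 951616 counts in adults 5 and 6, against 642748, 591347, 642307 and 581119 in juveniles 1 to 4. T3, of the same length, had 724572 and 575714 counts in the adults, against 592058, 588567, 661122 and 555755 in the juveniles. In the juveniles the counts of both transcripts were almost equal, whereas in adult 6 they were far apart. The ratio of T24 to T3 was 0.885 and 1.65 in adults 5 and 6, against 1.09, 1.00, 0.972 and 1.05 in juveniles 1 to 4, with a juvenile mean of 1.03 ± 0.0495 (SD, n = 4). Both adults lay outside the juvenile range, adult 5 below it and adult 6 above it, so the adults do not share a direction.

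T5 of Locus_761, matched to 16S rRNA and 181 nt long, had 720626 and 929918 counts in the adults, against 653895, 644629, 593153 and 566097 in juveniles 1 to 4. T42, 199 nt long, had 664574 and 825137 counts in the adults, against 660131, 633023, 662118 and 605675 in the juveniles. The ratio of T5 to T42 was 1.08 and 1.13 in the adults, against 0.991, 1.02, 0.896 and 0.935 in the juveniles, so both adults were above all juveniles, by less than the range of the juveniles.

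The raw counts of these 4 transcripts hardly differed among the juveniles, although library totals did. Over all 4 transcripts and all juveniles they lay between 555755 and 662118. From the lowest to the highest juvenile the counts differed by 1.19-fold for T3 and 1.11-fold for T24 of Locus_5720, and by 1.16-fold for T5 and 1.09-fold for T42 of Locus_761. The library totals of the same animals differed by 1.46-fold, and the median over all 9979 tested transcripts was 2.43-fold. A range of at most 1.19-fold was found in 222 of these transcripts, or 2.22%. The juvenile with the smallest library, juvenile 2, had the highest share of 16S rRNA.

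The minor transcripts differed in how closely they followed the abundant ones. T4 of Locus_5720 had 2152 and 2013 CPM in adults 5 and 6, against 840.0, 1027, 1656 and 1085 CPM in juveniles 1 to 4. T20 of the same locus had 107 and 317 CPM in the adults, against 28.7, 87.8, 160.4 and 62.3 CPM in the juveniles. On the TMM scale the adults were above all juveniles for T4, while for T20 juvenile 3 was above adult 5. As shares of unscaled totals the groups overlapped for T4 too, with 0.118% in adult 6 and 0.187% in juvenile 3. As a percentage of T24, T20 was at 0.386% and 0.512% in the adults and at 0.159%, 0.336%, 0.847% and 0.402% in juveniles 1 to 4, highest in juvenile 3.

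In Locus_761, T37 had 1760 and 3282 CPM in adults 5 and 6, against 847, 1239, 1704 and 888 CPM in juveniles 1 to 4. T18 of this locus had 877 and 2108 CPM in the adults, against 515, 841, 728 and 456 CPM in the juveniles. T2 had 676 and 988 CPM in the adults, against 343, 662, 374 and 351 CPM in the juveniles. On the TMM scale the adults were above every juvenile for all 3, adult 5 by a narrow margin, as for 8.55% of all transcripts. As shares of unscaled totals the groups overlapped for all 3. T37 was at 0.171% of all counts in adult 5 and 0.193% in juvenile 3. In adult 5 and juvenile 2, T18 was at 0.0853% and 0.0878%, and T2 at 0.0658% and 0.0691%. As a percentage of T5, T37 was at 5.65% and 5.42% in the adults and at 4.61%, 4.35%, 9.75% and 5.88% in juveniles 1 to 4, so juvenile 3 again had the largest share of a minor transcript. Relative to T5, T2 varied by 1.43-fold and T18 by 1.48-fold over the 6 animals, less than the abundant pair T24 and T3 of Locus_5720 did among themselves at 1.87-fold.

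A further pair of minor transcripts was prominent in single animals. T18 of Locus_5720 had 4962 and 344 counts in adults 5 and 6, against 140, 13692, 431 and 245 in juveniles 1 to 4. It thus made up 1.12% of Locus_5720 in juvenile 2 and 0.349% in adult 5, and at most 0.0316% in the other 4 animals. T47 of Locus_761 had 94 and 23744 counts in the adults, against 101, 6, 43 and 2 in the juveniles. In adult 6 it made up 1.27% of its locus, and elsewhere at most 0.00735%, so that it did not pass the filter and was not tested. T19 of Locus_5720, although matched to 16S rRNA, had only 4.11 and 6.71 CPM in the adults and 1.15 to 5.93 CPM in the juveniles. It was 1 of 10 members that stayed below 100 CPM in every animal, with at most 201 counts, none of which was tested. Among these, T19 of Locus_761 had no count in any library, which allows up to 3 counts in each.

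**Figure D3:**
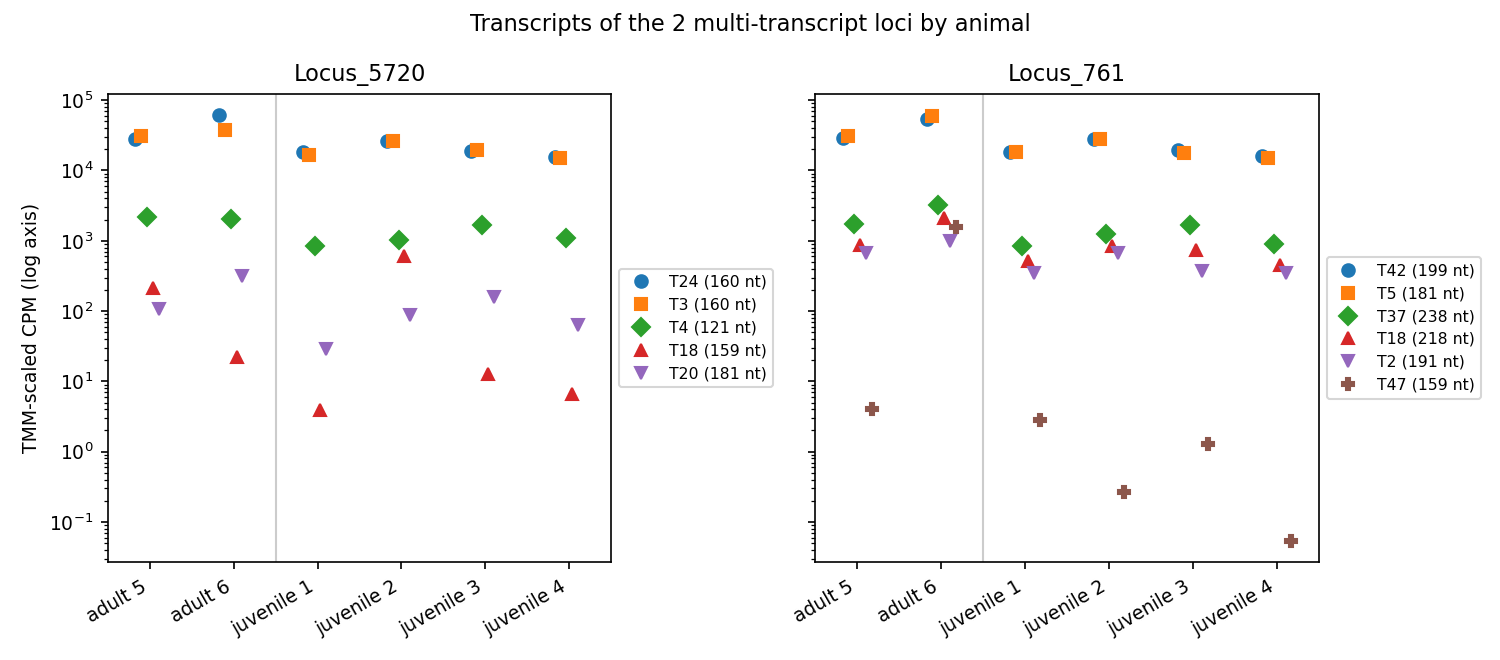
TMM-scaled CPM on a log axis for the transcripts of Locus_5720 and Locus_761 that reached 100 CPM in any animal, with adults left of juveniles and 1 point per animal. The 2 leading transcripts of each locus lie close together, while T18 of Locus_5720 peaks in juvenile 2 with 604 CPM and T47 of Locus_761 in adult 6 with 1546 CPM.

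Levels per length put the members in order, given here by the means of the adults, since T3 was above T5 in the juveniles. By mean TMM-scaled CPM per nt, T24 of Locus_5720 was at 280 in the adults and 123 in the juveniles, T5 of Locus_761 at 253 in the adults and 110 in the juveniles, and T3 of Locus_5720 at 215 in the adults and 120.1 in the juveniles. T42 of Locus_761 followed at 207 in the adults and 103 in the juveniles. Below them came Locus_86390 at 148 in the adults and 61.7 in the juveniles, Locus_92057 at 103 in the adults and 48.4 in the juveniles, and then T4 of Locus_5720 at 17.2 in the adults and 9.52 in the juveniles. The ranges of neighbours in this order overlapped over the animals of a group as far as Locus_92057, and the range of T4 lay below that of Locus_92057. Within each single animal, T42 was above Locus_86390, Locus_86390 above Locus_92057 and Locus_92057 above T4. The lowest member tested by its juvenile mean was Locus_92067, at 0.667 CPM per nt in the adults and 0.206 in the juveniles.

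Adults were then set against juveniles across all transcripts with edgeR's quasi-likelihood test. Of the 24 members, 13 passed the filter of 3 CPM in both adults and at least 3 juveniles, and 11 did not. None of the 13 had a Benjamini-Hochberg adjusted p under 0.05, as none of all 9979 transcripts did (0%). At an unadjusted p under 0.05 in edgeR there was 1 of 13, against 8.3% of all transcripts, with 3.98% higher and 4.32% lower in the adults. It was T18 of Locus_761, with a log2 fold change of 1.23 (SE 0.51, edgeR quasi-likelihood adjusted p = 0.560). Without adult 6 it was at 0.52, and its unadjusted p was also above 0.05 without juvenile 1, 3 or 4. More members passed before adjustment in the alternative tests. In DESeq2 these were 12 of 13, against 17% of all transcripts, and in the exact test of edgeR 4 of 13, against 8.48%. DESeq2 gave no p-value for T18 of Locus_5720, so all 12 members that had one were under 0.05. After adjustment none of these 12 passed in DESeq2, against 1.84% of all transcripts, and 0 of 13 in the exact test, against 0.11%.

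The log2 fold changes of adults over juveniles were above 0 in 12 of 13 members, against 42.5% of all transcripts. Their median was 1.11, beside -0.11 over all transcripts tested, and the members share sequence and a source, so they are not independent. On the TMM scale both adults were above all juveniles in 9 of 13 members and below all in 0, while over all transcripts 8.55% were above and 12.3% below. On library totals alone, a scale chosen for this count after the data had been seen, only 2 of 13 lay above all juveniles, T5 of Locus_761 and the transcript of Locus_86390, with 1.88% of all transcripts above and 27.7% below. The count of 9 therefore depends on the scaling.

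For the abundant transcripts the estimates lay close together relative to their errors. The log2 fold change was 1.19 (SE 0.58) for T24 and 0.84 (SE 0.53) for T3 of Locus_5720, and 1.21 (SE 0.58) for T5 and 1.01 (SE 0.57) for T42 of Locus_761, with edgeR adjusted p from 0.560 to 0.609. The minor T20 of Locus_5720 was at 1.32 (SE 0.70) and T4 at 0.85 (SE 0.46). T18 of Locus_5720 was the exception at -0.40 (SE 1.99, edgeR adjusted p = 0.960), and its sign depended on single animals, with 0.50 without adult 6 and 3.99 without juvenile 2.

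The counts were also summed per locus. Locus_5720 had levels of 61547 and 101830 CPM in adults 5 and 6, against 35524, 53781, 40261 and 31472 CPM in juveniles 1 to 4, and a log2 fold change of 1.11 (SE 0.65, edgeR adjusted p = 0.635). Locus_761 had 63227 and 122230 CPM in the adults, against 38581, 59116, 39813 and 32942 CPM in the juveniles, and a log2 fold change of 1.21 (SE 0.67, edgeR adjusted p = 0.624). On this TMM scale adult 6 was far above adult 5 in both loci, and adult 5 was just above juvenile 2. As shares of unscaled totals, Locus_5720 was nearly equal in adults 5 and 6, at 5.99% and 5.97%. Locus_761 was at 6.15% and 7.17%, so the gap between the adults depends on the scaling.

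Locus_86390 had 13080 and 25632 CPM in adults 5 and 6, against 7314, 11826, 7434 and 5751 CPM in juveniles 1 to 4 (log2 fold change 1.35, SE 0.60, edgeR adjusted p = 0.60). The values of Locus_92057 were 8810 and 16527 CPM in the adults and 5605, 9293, 4944 and 3992 CPM in the juveniles (log2 fold change 1.18, SE 0.60, edgeR adjusted p = 0.608). Locus_92067 had 117 and 76.5 CPM in the adults, against 5.36, 10.6, 82.7 and 21.1 CPM in the juveniles (log2 fold change 1.78, SE 0.92, edgeR adjusted p = 0.612). On this scale Locus_92067 was the one locus with adult 6 below adult 5, and for Locus_92057 and Locus_92067 a juvenile exceeded an adult.

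Thus 5 of 5 loci had estimates above 0, with 42% of all 8876 tested loci above 0 and a median of -0.11. None was called at an adjusted p under 0.05 (0% of all loci), and 0 of 5 had an unadjusted p under 0.05 (7.94% of all loci, 4.06% higher and 3.89% lower in the adults) with edgeR's quasi-likelihood test. The alternative tests differed from this before adjustment. All 5 loci had an unadjusted p under 0.05 both in DESeq2 (15.7% of all loci) and in the exact test of edgeR (8.35%), and none of the 5 passed after adjustment in either (1.6% of all loci in DESeq2 and 0.0789% in the exact test). Both adults were above all juveniles for 3 of 5 loci, Locus_5720, Locus_761 and Locus_86390, against 6.69% of all loci. On library totals alone they were above for 2 of 5, Locus_5720 and Locus_86390, and below for 0, with 1.33% of all loci above and 31.9% below. Adult 6 carried much of the size of the estimates. Without it the log2 fold changes of the 4 larger loci were 0.64 to 0.77, while that of Locus_92067 was 2.06. Without juvenile 3, Locus_92067 was at 3.05 (edgeR adjusted p = 0.746).

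**Figure D4:**
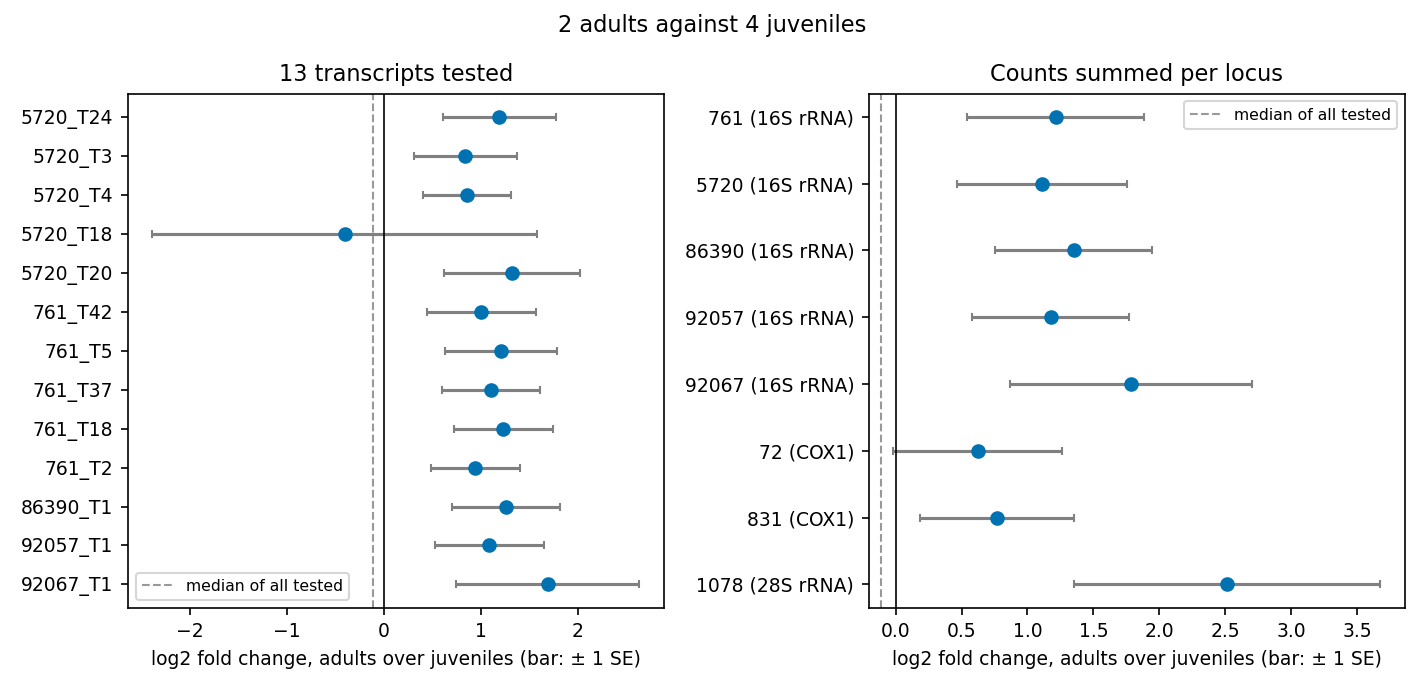
Log2 fold change of adults over juveniles with 1 SE to either side, for the 13 tested 16S rRNA transcripts and for the loci summed, with COX1 and 28S rRNA loci beside them and the median of all tested features as a dashed line. The 16S rRNA estimates lie near 1 except T18 of Locus_5720 at -0.40 and Locus_92067, and none passed the threshold after adjustment.

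Other abundant RNAs were read beside the 16S loci. The COX1 loci, Locus_72 and Locus_831, come from the same mitochondrial DNA and together held 4.6% and 3.37% of all counts in adults 5 and 6, against 3.53%, 5.81%, 3.31% and 3.44% in juveniles 1 to 4. As for the 16S loci, juvenile 2 was the highest juvenile, but for COX1 it was above both adults. The ratio of 16S rRNA to COX1 counts was 3.10 and 4.63 in the adults, against 2.77, 2.41, 3.17 and 2.85 in the juveniles, so adult 6 stood above all animals and adult 5 within the juvenile range (log2 difference 0.44, exact permutation p = 0.267). The log2 fold changes of the COX1 loci were 0.62 (SE 0.64) and 0.77 (SE 0.58), with edgeR adjusted p of 0.770 and 0.683.

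Locus_1078, matched to 28S rRNA of the large subunit of the cytoplasmic ribosome, took 2.25% and 8.85% of all counts in adults 5 and 6, against 0.641%, 0.488%, 5.43% and 1.06% in juveniles 1 to 4. This nuclear-encoded rRNA was thus high in adult 6 and juvenile 3 and low in juveniles 1 and 2. Its log2 fold change of adults over juveniles was 2.51 (SE 1.16), and the groups overlapped. Juvenile 3 was also the highest juvenile for Locus_92067 and for the share of the minor transcripts T20 of Locus_5720 and T37 of Locus_761, and the part of 28S rRNA in these values was not tested. Locus_3503, matched to bacterial 16S rRNA, was rare at 0.0226% and 0.0479% of counts in the adults and 0.00941% to 0.0135% in the juveniles. Locus_7838, also bacterial, was at 0.00788% and 0.00984% in the adults and 0.00616% to 0.0171% in the juveniles. The log2 fold change was 2.505 (SE 0.54) for Locus_3503 and 0.69 (SE 0.53) for Locus_7838. For Locus_3503 both adults were above all juveniles (edgeR unadjusted p = 0.0017). The estimates of Locus_1078 and Locus_3503 were above those of all 16S loci, and those of Locus_7838 and COX1 below. None was called after adjustment. Estimates above 0 were thus not particular to mitochondrial 16S rRNA.

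**Figure D5:**
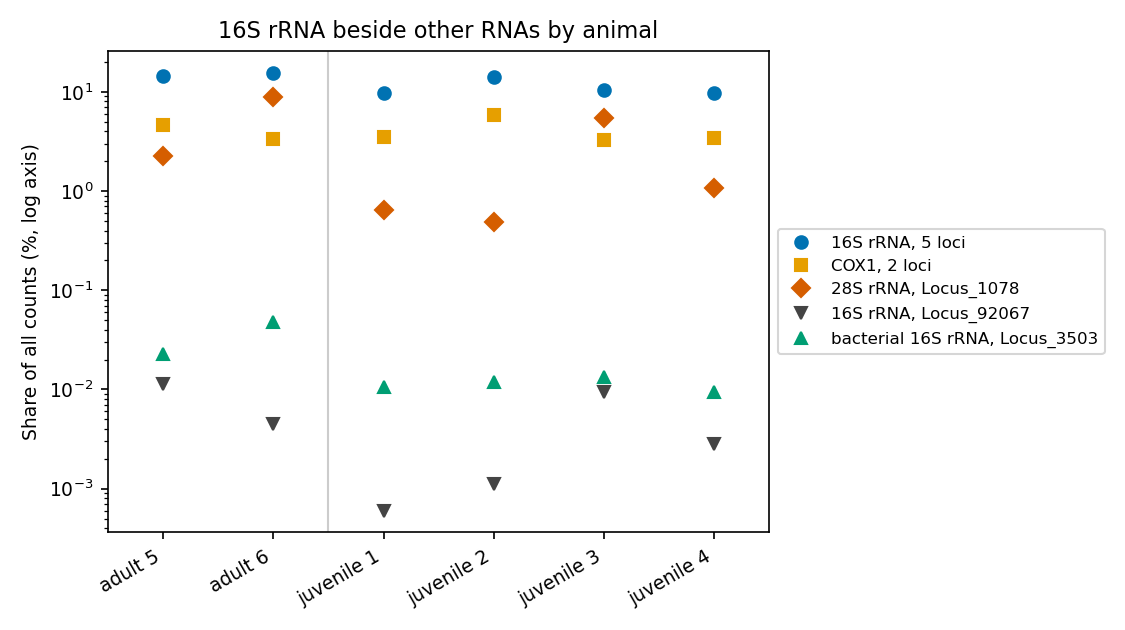
Percent of all counts on a log axis for the 5 16S rRNA loci together and for Locus_92067 alone, beside COX1, 28S rRNA and a bacterial 16S rRNA locus, with adults left of juveniles and 1 point per animal. Mitochondrial 16S rRNA was highest of these in every animal, while 28S rRNA peaked at 8.85% in adult 6 and 5.43% in juvenile 3.

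Proteins that work in mitochondria but are encoded in the nucleus were represented by 9 transcripts named in the study's annotation, of which 7 were tested. None was called at an adjusted p under 0.05 in edgeR, 1 had an unadjusted p under 0.05, and 6 had log2 fold changes above 0 and 1 below, with a median of 0.57. Over all transcripts these shares were 0%, 8.3% and, for values above 0, 42.5%. NAD(P) transhydrogenase, an enzyme of the inner membrane that makes NADPH, had 175 and 218 CPM in adults 5 and 6, against 72.3, 107 (juvenile 2), 81.5 and 82.3 CPM in the juveniles, so the groups did not overlap (log2 fold change 1.2, SE 0.36, edgeR adjusted p = 0.560). On the TMM scale both adults were also above all juveniles for Locus_11972_T8, Locus_308_T15 and Locus_4976_T7, and the other tested transcripts of this list overlapped. Over all transcripts 8.55% had both adults above all juveniles on that scale, and 1.88% on library totals alone. On library totals the groups overlapped for Locus_11972_T8, Locus_308_T15 and Locus_4976_T7, with adult 6 within or below the juvenile range. Only the transhydrogenase stayed apart there. The transcript of mrpl13, a protein of the same large ribosomal subunit as the 16S rRNA, had 7.83 and 5.41 CPM in the adults, against 5.64, 5.56, 5.19 and 6.00 CPM in the juveniles. It did not follow the 16S rRNA, which was much higher in adult 6 than in adult 5 on the same scale (log2 fold change 0.24, SE 0.31, edgeR adjusted p = 0.80). Summed, the 9 transcripts had 512 and 467 CPM in the adults, against 333, 288, 295 and 296 CPM in the juveniles.

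The loci most like the 16S rRNA in their pattern were looked for by Pearson's correlation of log2 CPM with the sum of the 5 loci over the 6 animals, as a description. The sum had 146780 and 266300 CPM in adults 5 and 6, against 87029, 134030, 92534 and 74177 CPM in juveniles 1 to 4. The closest unnamed loci were Locus_98826, with r = 0.998, and Locus_28552, with r = 0.997. Locus_98826 had 863 and 2701 CPM in the adults, against 357, 828, 378 and 281 CPM in the juveniles, and put the animals in the same order as the 16S rRNA. Of the loci with a name, the closest were Locus_50, matched to a mitochondrial sequence of a fish, with r = 0.982, Locus_9566, matched to the skin bacterium Cutibacterium, with r = 0.968, and Locus_4677, matched to copb2, a coat protein of vesicles in the secretory pathway, with r = 0.966. Without adult 6 and juvenile 4 these were 0.906, 0.897 and 0.863. In all, 300 loci (3.38%) had r above 0.9, the COX1 loci had 0.890 and 0.903, and all these values share the library scaling of the same 6 animals.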

How the data were processed

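RNA of the body wall was selected for poly(A), sequenced as paired ends and aligned by the authors with HISAT2, of which no version is stated, under strand setting FR, to a transcriptome they had assembled de novo from wild animals. Only unique matches entered, and no counting program is named. The authors deposited raw counts per assembled transcript, 1 column per animal, and used edgeR 3.20.9 themselves. Whether counting used the strand is likewise not stated. Names come from the study's supplementary annotation, which covers only transcripts that passed its own test on wild and captive animals.

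Here the counts were used as deposited, per transcript and summed per locus, with column totals as library sizes, in R 4.3.3 with edgeR 4.0.16 and in Python 3.11.15 with scipy 1.17.1. Features with 3 CPM in both adults and at least 3 juveniles were tested with TMM factors, glmQLFit and glmQLFTest, without covariates, and Benjamini-Hochberg adjustment over all of them. Shares and ratios were compared with an exact permutation test, two-sided. Levels of loci use the TMM factors of the transcript fit. The tests were tried on simulated counts. Transcripts with at least 100 CPM from library totals in any animal were described singly and the rest by range, with the COX1, 28S rRNA and bacterial rRNA loci and 9 nuclear-encoded mitochondrial transcripts beside them, and the 3 named and 2 unnamed loci most like the sum (log2 CPM with a prior count of 2). Members and lists were chosen with earlier results of these data known. Alternatives were other normalizations (upper quartile, DESeq2 size factors, library totals), DESeq2 1.42.0, the exact test of edgeR, a filter of 1 CPM or none, totals without the 16S loci, ratios from matched or most abundant transcripts only, and leaving out each animal in turn. Non-overlap on library totals was added after the data had been seen.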

Additional observations from a re-analysis of the deposited data

Results flagged for a closer look

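Among 35 sets of 4 juvenile values, Dixon's test found 7 in which the highest animal stood far from the rest, where chance gives about 1 in 20. In juvenile 2 these were the share of all counts of the 5 16S rRNA loci together (13.99%) and of Locus_761 (6.17%), and the levels of T18 of Locus_5720 (604 CPM) and of T2 of Locus_761 (662 CPM). The shares of the COX1 loci, Locus_72 at 5.10% and Locus_831 at 0.709%, were set apart in the same animal, which had the smallest library. In juvenile 3 the 28S rRNA locus, Locus_1078, was set apart at 5.43%. All sets come from the same 4 animals, and some share counts, such as the 5 loci together and Locus_761. They are not independent, so the 7 found cannot be weighed against 1 in 20.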

How the results depend on the processing

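No 16S rRNA transcript or locus was called under any of the 14 alternative settings, and all 5 locus estimates stayed above 0, with log2 fold changes of 0.38 to 1.45 for Locus_5720, 0.46 to 1.63 for Locus_761, 0.60 to 1.77 for Locus_86390, 0.44 to 1.58 for Locus_92057 and 1.19 to 3.05 for Locus_92067. The lowest values came from library totals alone, which also moved the median of all transcripts to -0.67 and of all loci to -0.76. Over all transcripts, 0 were called in the quasi-likelihood test (828 at an unadjusted p under 0.05), 184 by DESeq2, 11 by the exact test of edgeR and 7 without the filter. Over all loci there were 0 (705 unadjusted), 142, 7 and 12. The 16S rRNA transcripts with both adults above all juveniles numbered 2 of 13 on library totals. Of 182 single-transcript settings, 180 kept their direction and side of the threshold, counting T18 of Locus_5720 in DESeq2, which had no p-value there. T18 of Locus_5720 reversed, and spanned -2.81 to 3.99 over left-out animals. The log2 difference of the ratio of Locus_5720 to Locus_761 was 0.14 from the most abundant transcripts and -0.19 to 0.0375 over left-out animals. For Locus_5720 to Locus_92057 it was 0.0131 from matched transcripts, 0.0132 from the most abundant and -0.18 to 0.0041 over left-out animals, and for Locus_761 to Locus_92057 it was 0.0816 from matched transcripts and -0.0809 to 0.0443 over left-out animals. From the most abundant transcripts, Locus_761 to Locus_92057 was at -0.124. All 3 differences changed sign between settings, and the causes were not tested. The difference in the total share was 3.27 to 4.93 points over left-out animals and 2.69 points, with overlapping groups, from matched transcripts only. No paired analysis was possible because the groups are different animals and no label links an adult to a juvenile. With 2 adults, the exact tests could not go below 0.133 at any depth.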
